A study of Danio rerio with 6 samples.

Results

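The genes described here encode the thin filament of the cardiomyocyte sarcomere. They are the 9 rows of the deposited table with the symbols tnnt2a, tnni1b, tnnc1a, tnnc1b, actc1a, tpma, tpm4a, tmod1 and lmod2b, out of 25089 genes, selected by symbol. Cells were sorted from the ventricle apex of zebrafish that carry a Gata4:GFP reporter, and all 6 libraries share that reporter. The 3 uninjured libraries came from intact hearts, and the 3 regenerating libraries from hearts 5 days after resection of the apex, with the injury tissue cleared away before dissociation. The labels give no age and no number of pooled animals and do not state whether each library had its own animals, so the tests see only library-to-library spread, part of which may be technical. The study's title names sarcomeric promoters as its subject, and the comparison of regenerating with uninjured cells asks whether sarcomere transcripts differ in level and proportion.

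The thin filament is a helical polymer of actin with tropomyosin lying along it and a troponin complex at regular steps. Troponin T ties the complex to tropomyosin, troponin I holds the filament off in the absence of calcium, and troponin C binds calcium and lifts that block. Tropomodulin caps the pointed end of the filament, and leiomodin nucleates actin and lets that end grow, so these proteins together set filament length. Loss of tnnt2a in zebrafish gives the silent heart phenotype, in which the heart forms but does not beat.

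The libraries differed in summed cardiomyocyte transcripts, also within a group. Levels are fragments per kilobase of transcript relative to the library's total (FPKM), scaled between libraries by median ratios, and are called scaled FPKM. As FPKM is per length, they allow a rough comparison between genes, with limits of floor, shared reads and length given below. Summed over 14 cardiomyocyte genes that are in neither filament list, scaled FPKM was 2512, 1764 and 1346 in uninjured replicates 1, 2 and 3, and 1046, 888 and 1889 in regenerating replicates 1, 2 and 3. Regenerating replicate 3 therefore lay above uninjured replicates 2 and 3 in this sum. The genes of the sum were not alike. In regenerating replicate 3, nppa (266) and ckma (235) exceeded every uninjured library, while ryr2b (10.1), actn2b (130) and ldb3a (49.7) lay below every one. Summed FPKM per library before scaling ran from 422675 to 535337, and mitochondrially encoded genes took 21.8% to 41.9% of it in uninjured and 10.3% to 18.8% in regenerating libraries. In such bulk libraries, fewer cardiomyocytes and less RNA per cardiomyocyte cannot be told apart.

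Markers of other cells moved with the groups. Of 9 epicardial markers 7 rose (summed scaled FPKM 812 to 1337 in uninjured and 1736 to 2605 in regenerating libraries), and of 8 fibroblast markers 6 rose (193 to 346 and 1342 to 1465). Of 12 smooth muscle and mural markers 4 fell and 2 rose (781 to 1028 and 412 to 535). Of 7 erythrocyte markers 4 rose (6.66 to 417 and 367 to 1049). Among these 4, alas2 and cahz were above 1 FPKM in the regenerating libraries only. They passed the filter (above 1 FPKM in at least 3 libraries) through that group alone, so their calls do not count towards a rise. Of 10 endothelial markers, 9 of them tested, 2 rose (63.1 to 91.4 and 66.1 to 124). Of 5 thrombocyte markers 2 fell (gp1bb and mpl) and 1 rose (fn1b, a fibronectin gene). In scaled FPKM all regenerating values of itga2b, gp1bb, thbs1b and mpl lay below all uninjured ones. Of 10 leukocyte markers only 7 were tested, and none of these passed (96.8 to 114 and 36.8 to 125, limma, adjusted p below 0.05, with 1 higher in unscaled values). In unscaled values 2 smooth muscle markers fell and 3 rose, 3 endothelial markers rose and all 7 erythrocyte markers rose. Of all tested genes, 3.93% were called lower and 7.49% higher in scaled values, and 1.5% and 23.6% in unscaled values. Without regenerating replicate 3, 3 smooth muscle markers fell and none rose in limma, and 1 endothelial marker rose. Of all tested genes 2.11% were then called lower and 3.11% higher. The erythrocyte count was then 2 of 5 tested, as alas2 and cahz, both called higher when all 6 libraries were fitted, no longer passed the filter on FPKM. None of these lists had a marker with a mean normalised count of 0. Skeletal muscle markers were at or near 0, as 15 of 16 had a mean normalised count below 10, and the exception was the alpha-actin gene acta1b. The part of these other cells in the results below was not tested.

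Relative to the median gene, lmod2b and tmod1, the pointed-end genes among the 9, fell in regenerating cells. The other 7 thin filament genes did not pass the test (limma on log2(scaled FPKM + 1), Benjamini-Hochberg adjusted p below 0.05 over 13363 genes). Among all tested genes 3.93% were called lower and 7.49% higher. The median log2 change of the 9 genes was -0.70, beside 0.05 for all tested genes, and 8 of the 9 values were below 0 (tnnc1b was above). With limma's p unadjusted and below 0.05, 4 of the 9 were lower and 1 was higher. No share of all tested genes was computed at that cut, so these counts cannot be set against the other genes. The groups did not overlap for tmod1, lmod2b and tpma, all lower in regenerating libraries, and overlapped for the other 6. The row tpma held next to no reads, as described below, so its change and its separation are no measure of expression. With tpma set aside, the median of the other 8 was -0.79, with 7 values below 0 and 1 above. Over all tested genes, 13.7% had regenerating libraries all below the uninjured ones and 19.1% all above them. Without library scaling the median gene rose by 0.50 on the log2 scale, lmod2b was the only lower call among the 9 and tnnc1b was called higher. The median of the 9 was then -0.083, with 5 values below 0 and 4 above, where 1.5% of all genes were called lower and 23.6% higher. The authors' deposited table lists 4 of the 9 as lower at an adjusted p below 0.05 (tnnt2a, tnnc1a, tmod1 and lmod2b) and 0 as higher. Over the 21504 genes with a mean normalised count above 0, those shares were 4.62% and 4.84%.

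**Figure D1:**
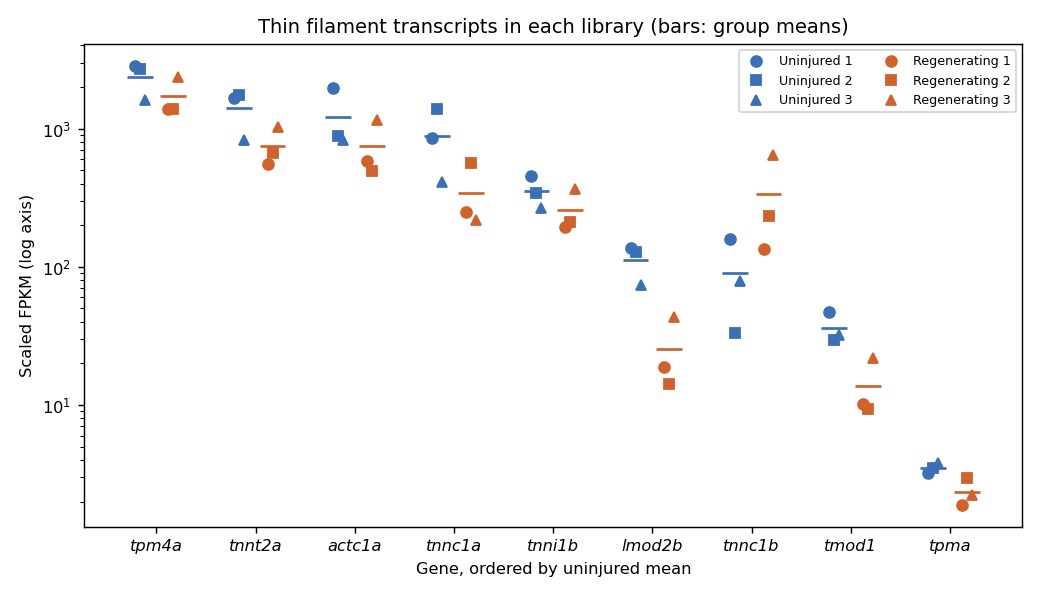
Scaled FPKM (log axis) of the 9 thin filament genes in each of the 3 uninjured (blue) and 3 regenerating (orange) libraries, with horizontal bars at group means. The regenerating points lie below all uninjured ones for lmod2b and tmod1, and tnnc1b spans 33.1 to 159 in uninjured and 134 to 649 in regenerating libraries.

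Troponin T transcript tnnt2a (ENSDARG00000020610) measured 1673, 1749 and 833 scaled FPKM in the uninjured libraries and 559, 669 and 1028 in the regenerating ones, in replicate order. Only regenerating replicate 3 exceeded the lowest uninjured value. The log2 change was -0.89 (SE 0.35, adjusted p = 0.143 in limma), and the authors' deposited table gives -1.03 with an adjusted p of 0.0259. Troponin I transcript tnni1b (ENSDARG00000052708) measured 454, 345 and 266 in uninjured and 195, 210 and 368 scaled FPKM in regenerating libraries. These groups overlapped, with regenerating replicate 3 above 2 of the 3 uninjured libraries. Its log2 change was -0.49 (SE 0.31, adjusted p = 0.353 in limma) and turned to 0.13 without scaling.

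The troponin C paralogs had changes of opposite sign, neither of which passed the test. The gene tnnc1a (ENSDARG00000011400), whose loss in zebrafish impairs contraction of the embryonic heart, measured 852, 1379 and 408 scaled FPKM in uninjured and 249, 566 and 217 in regenerating libraries. Only regenerating replicate 2 overlapped with the uninjured range. Its log2 change was -1.32 (SE 0.48, adjusted p = 0.109 in limma) and ran from -1.79 without uninjured replicate 3, where it passed (limma adjusted p = 0.0450), to -0.92 without uninjured replicate 2 (limma adjusted p = 0.252). It was -0.71 without scaling (limma adjusted p = 0.342), and the authors' deposited table gives -1.40 with an adjusted p of 0.0130. Its paralog tnnc1b (ENSDARG00000037539) measured 159, 33.1 and 78.4 scaled FPKM in uninjured and 134, 234 and 649 in regenerating libraries. Regenerating replicate 3 was far above all others, and uninjured replicate 1 lay above regenerating replicate 1. The log2 change of tnnc1b was 1.86 (SE 0.63, adjusted p = 0.0892 in limma), 1.24 without regenerating replicate 3 (limma adjusted p = 0.242) and 2.40 without uninjured replicate 1 (limma adjusted p = 0.0380). The authors' deposited table gives 1.41 with an adjusted p of 0.239.

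The proportion of the troponin C paralogs needs no library scaling, although reads shared between them could not be checked here. The gene tnnc1b made up 15.7%, 2.35% and 16.1% of the summed FPKM of tnnc1a and tnnc1b in the uninjured libraries. In the regenerating libraries it made up 34.9%, 29.3% and 74.9%. All 3 regenerating shares lay above all 3 uninjured ones, also with regenerating replicate 3 set aside. Mean shares were 11.4% ± 7.84 and 46.4% ± 24.9 (SD, n = 3), a difference of 2.34 on the log2 scale of the share, with a two-sided exact permutation p of 0.1, the smallest that 3 libraries against 3 allow. Without uninjured replicate 2, whose share was the lowest, the difference was 1.42. Adjusted over the 10 ratios computed, the exact permutation p was 0.167. In regenerating replicate 3 tnnc1b exceeded tnnc1a, whereas in the other 5 libraries tnnc1a was the more abundant. Together the paralogs stood at 0.604, 0.807 and 0.584 of tnnt2a in uninjured and 0.685, 1.20 and 0.843 in regenerating libraries. These groups overlapped (log2 difference 0.43, exact permutation p = 0.2). Taken singly, tnnc1a over tnnt2a also overlapped, at 0.509, 0.788 and 0.489 in uninjured and 0.446, 0.847 and 0.211 in regenerating libraries. For tnnc1b over tnnt2a the groups did not overlap (0.0949, 0.0189 and 0.0942, then 0.239, 0.350 and 0.632). The single ratios were added beyond the 10 and given no test.

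The ratio of an atrial to a ventricular marker also separated the groups. The ratio of the atrial myosin heavy chain gene myh6 to the ventricular gene vmhc was 0.916, 0.548 and 0.740 in uninjured and 1.97, 3.21 and 5.85 in regenerating libraries. This ratio was chosen after the tnnc1b values were seen and was given no test. It was highest in regenerating replicate 3, where the tnnc1b share was also highest, and lowest in uninjured replicate 2, where the share was lowest. Among the other libraries of each group the orders were opposite. The share was higher in regenerating replicate 1 than in 2 and in uninjured replicate 3 than in 1, while this ratio was lower. The gene myh6 itself had overlapping groups and did not pass (log2 change 1.43, SE 0.56, limma adjusted p = 0.137). The ratio of tnnc1b to myh6 was 2.11, 0.607 and 2.70 in uninjured and 2.09, 2.14 and 1.88 in regenerating libraries. It therefore stayed within a narrow range in the regenerating libraries while tnnc1b itself differed between them from 134 to 649 scaled FPKM. The part of atrial transcripts in the paralog shift was not tested.

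**Figure D2:**
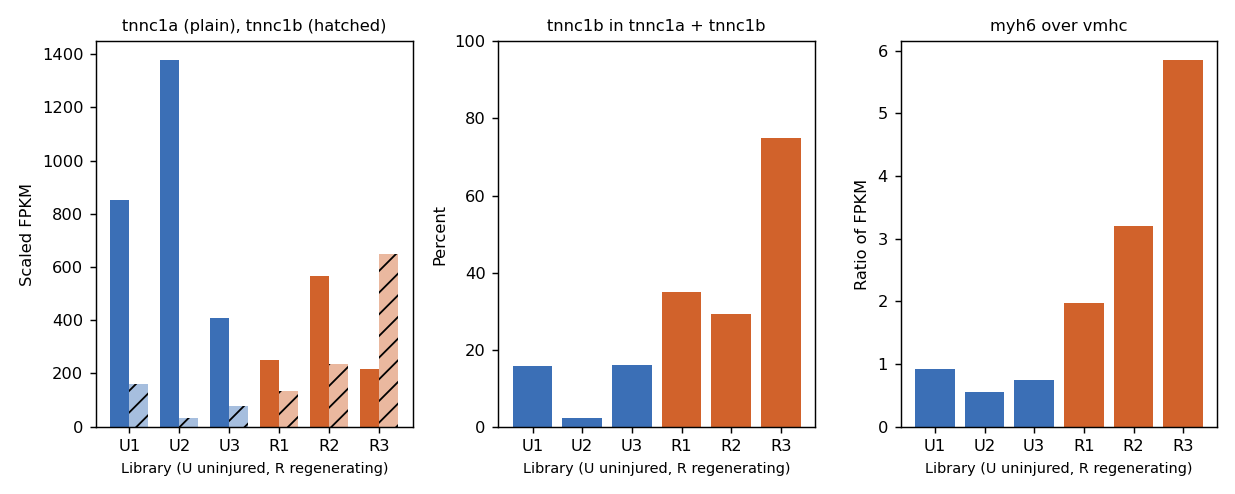
Troponin C paralogs by library (U uninjured in blue, R regenerating in orange): scaled FPKM of tnnc1a and tnnc1b, the percent of tnnc1b in their sum, and the FPKM ratio of myh6 to vmhc. The tnnc1b share is 2.35% to 16.1% in uninjured and 29.3% to 74.9% in regenerating libraries, and the myh6 to vmhc ratio is 0.548 to 0.916 and 1.97 to 5.85.

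Cardiac actin transcript actc1a (ENSDARG00000042535), the backbone of the filament, measured 1955, 885 and 826 scaled FPKM in uninjured and 583, 495 and 1159 in regenerating libraries. Uninjured replicate 1 and regenerating replicate 3 stood above the rest of their groups, and the groups overlapped. The log2 change was -0.70 (SE 0.41, adjusted p = 0.313 in limma), -0.29 without uninjured replicate 1 and -1.06 without regenerating replicate 3. The actin genes are near-identical in coding sequence and may share reads, which could not be checked here.

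The tropomyosin gene tpm4a (ENSDARG00000023963) was the most abundant of the 9 genes in all 6 libraries. It measured 2844, 2701 and 1607 scaled FPKM in uninjured and 1396, 1379 and 2363 in regenerating libraries. Regenerating replicate 3 lay within the uninjured range and the other regenerating libraries below it. The log2 change was -0.48 (SE 0.33, adjusted p = 0.383 in limma) and turned to 0.13 without scaling. The row tpma (ENSDARG00000033683), an alpha-tropomyosin gene, held next to no reads, with a mean normalised count of 0.275 over libraries, where the other 8 genes had 423 to 10860. Its FPKM of 2.41 to 3.50 before scaling followed the floor seen in each library at genes whose mean normalised count is 0, at 14.7 to 16.4 times the floor's median product of FPKM and kilobases. The lower scaled values of tpma in regenerating libraries (1.89 to 2.94 against 3.22 to 3.77) are therefore those of a floor divided by the library scaling, and its log2 change of -0.44 is no measure of expression. The authors' deposited table gives tpma a log2 change of 0.40 with an adjusted p of 0.804. The share of tpm4a in both rows was 99.8% ± 0.0657 in uninjured and 99.9% ± 0.0604 in regenerating libraries (SD, n = 3). That share leaves out the other tropomyosin rows, among them TPM1, which was read in all 6 libraries. Of the summed FPKM of 6 tropomyosin rows, tpm4a made up 91.3%, 93.6% and 87.5% in uninjured and 86.6%, 84.1% and 92.4% in regenerating libraries, with overlapping groups.

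Tropomodulin transcript tmod1 (ENSDARG00000078318) fell. It measured 46.7, 29.6 and 31.8 scaled FPKM in uninjured and 10.1, 9.37 and 21.8 in regenerating libraries. All regenerating values lay below all uninjured ones, and regenerating replicate 3 came closest and overlapped before scaling. The mean went from 36.0 ± 9.31 to 13.7 ± 6.95 (SD, n = 3). On the log2 scale tmod1 changed by -1.40 (SE 0.34) with an adjusted p of 0.0288 in limma. Without regenerating replicate 3 it changed by -1.74 with an adjusted p of 0.0135 in limma, where 2.11% of all genes were called lower and 3.11% higher. The call was lost without library scaling (-0.81, limma adjusted p = 0.138) and without uninjured replicate 1 or 3 or regenerating replicate 1 or 2, where limma adjusted p was 0.0671, 0.0559, 0.129 and 0.121 and the log2 change ran from -1.48 to -1.17.

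Leiomodin transcript lmod2b (ENSDARG00000045864) had the largest change among the 9 genes in scaled values of all 6 libraries. In size, the change of tnnc1b was larger without scaling (2.47) and without uninjured replicate 1 or regenerating replicate 1 or 2. It measured 136, 128 and 74.0 scaled FPKM in uninjured and 18.9, 14.3 and 43.0 in regenerating libraries. No regenerating value reached the lowest uninjured one, while before scaling regenerating replicate 3 (56.3 FPKM) lay above uninjured replicate 3 (53.8 FPKM). In scaled values the uninjured mean was 4.44 times the regenerating mean (112.7 ± 33.7 and 25.4 ± 15.4, SD, n = 3). The log2 change was -2.21 (SE 0.40, adjusted p = 0.00952 in limma), and it ran from -2.64 to -1.87 when each library was left out in turn. It was -1.61 without scaling (limma adjusted p = 0.0281), and the authors' deposited table gives -2.14 with an adjusted p of 7.25e-07.

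**Figure D3:**
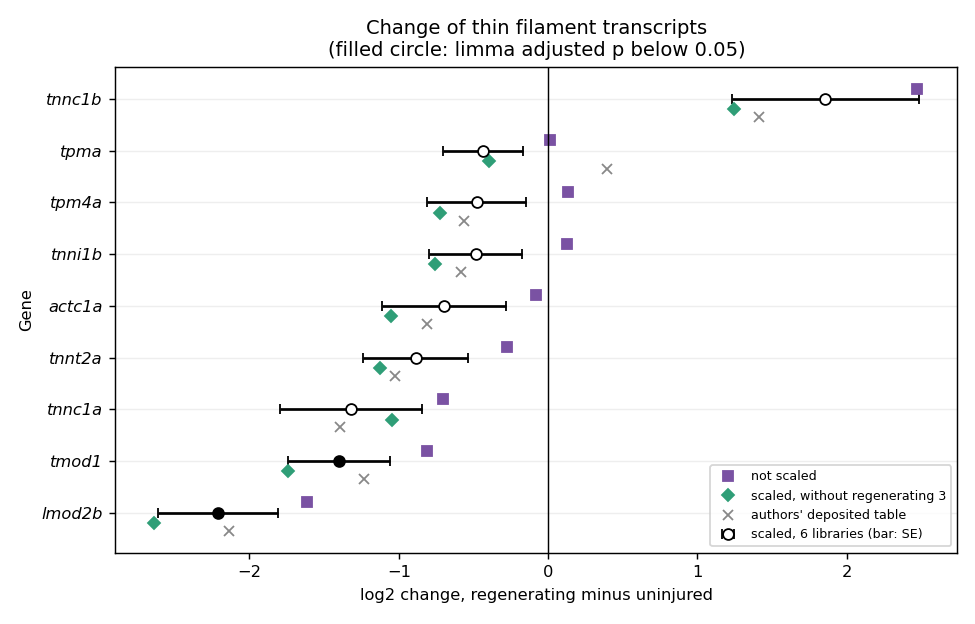
Log2 change (regenerating minus uninjured) of the 9 thin filament genes in scaled values of 6 libraries (circles, bars are SE, filled where limma's adjusted p is below 0.05), without scaling, without regenerating replicate 3 and in the authors' deposited table. The values of lmod2b stay between -2.64 and -1.61 across these, and tnni1b and tpm4a cross 0 without scaling.

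The order of levels per length was tpm4a, tnnt2a, actc1a, tnnc1a, tnni1b, lmod2b, tnnc1b, tmod1 and tpma by uninjured means. In uninjured libraries, ranges of neighbours in that order overlapped except between tnni1b and lmod2b and between tmod1 and tpma. In regenerating libraries tnnc1b stood above tnni1b and lmod2b in the fifth place, at 339 ± 273 scaled FPKM beside 344 ± 193 for tnnc1a and 258 ± 95.8 for tnni1b (SD, n = 3), all with overlapping ranges. The ranges of tpm4a and tnnt2a no longer overlapped in the regenerating group. The 9 genes together made up 1.44%, 1.57% and 0.706% of all FPKM in the uninjured and 0.783%, 0.788% and 1.47% in the regenerating libraries.

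Ratios taken within a library cancel its scaling, and 10 ratios were compared. The groups did not overlap in 6 of them, all with a two-sided exact permutation p of 0.1 and an adjusted p of 0.167, so none can pass a threshold of 0.05 in this design. Among single tested genes in scaled FPKM, 13.7% were lower and 19.1% higher without overlap. No such share was computed for ratios of other genes. The ratios between lmod2b, tmod1 and actc1a are tied, as each follows from the others. The ratio of lmod2b to actc1a was 0.0694, 0.145 and 0.0896 in uninjured and 0.0324, 0.0289 and 0.0371 in regenerating libraries, a log2 difference of -1.57. Every regenerating library lay below every uninjured one, with little spread among the regenerating libraries although actc1a itself differed between them from 495 to 1159 scaled FPKM. The ratio of tmod1 to actc1a was 0.0239, 0.0334 and 0.0385 in uninjured and 0.0173, 0.0189 and 0.0188 in regenerating libraries, a log2 difference of -0.77. The ratio of lmod2b to tmod1, the elongating to the capping factor, was 2.90, 4.33 and 2.33 in uninjured and 1.87, 1.53 and 1.98 in regenerating libraries, a log2 difference of -0.79. Each regenerating library was thus below every uninjured one in tmod1 and lmod2b per actc1a transcript and in lmod2b per tmod1 transcript. Per tnnt2a transcript, beyond the 10 ratios and untested, the groups of tmod1 overlapped. That ratio was 0.0279, 0.0169 and 0.0382 in uninjured and 0.0181, 0.0140 and 0.0212 in regenerating libraries. For lmod2b per tnnt2a they did not overlap (0.0811, 0.0734 and 0.0889, then 0.0338, 0.0214 and 0.0418). Other tropomodulin and leiomodin genes, among them tmod2, were not part of these ratios.

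The remaining ratios between tropomyosin, troponin and actin transcripts had log2 differences of -0.22 to 0.41. The ratios of tropomyosin, troponin I and troponin C over tnnt2a share that denominator, so they are not separate measures. Tropomyosin per troponin T (tpma and tpm4a over tnnt2a) was 1.70, 1.55 and 1.93 in uninjured and 2.503, 2.07 and 2.30 in regenerating libraries, a log2 difference of 0.41 with groups that did not overlap. With all 6 tropomyosin rows, a sum added after the values were seen, it was 1.86, 1.65 and 2.204 in uninjured and 2.89, 2.45 and 2.49 in regenerating libraries. Troponin I per troponin T was 0.272, 0.197 and 0.319 in uninjured and 0.350, 0.314 and 0.358 in regenerating libraries, where uninjured replicate 3 overlapped with regenerating replicate 2 (log2 difference 0.40, exact permutation p = 0.2). Actin per tropomyosin was 0.687, 0.327 and 0.513 in uninjured and 0.417, 0.358 and 0.490 in regenerating libraries, with overlapping groups (log2 difference -0.22, exact permutation p = 0.6, two-sided). That direction turned without uninjured replicate 1.

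**Figure D4:**
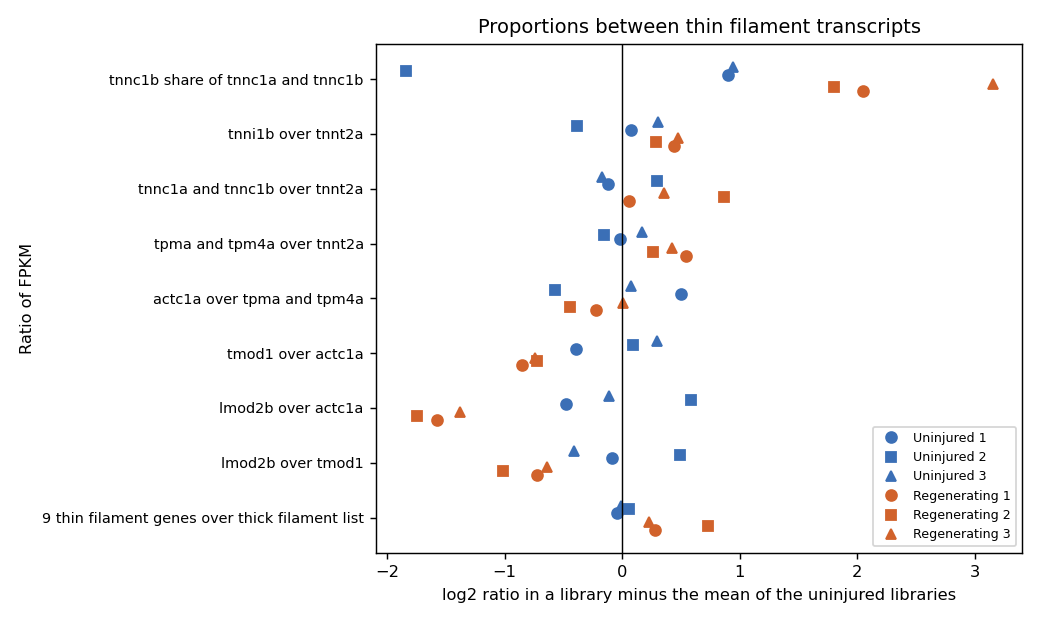
Log2 ratios of FPKM between thin filament transcripts in each library, minus the mean of the uninjured libraries (blue uninjured, orange regenerating; marker shape gives the replicate). The regenerating points of lmod2b over actc1a, tmod1 over actc1a and lmod2b over tmod1 lie left of all uninjured points, and those of the tnnc1b share, of tropomyosin over tnnt2a and of the thin over the thick filament lie right of them.

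Summed over the listed genes, thin filament transcripts stood higher relative to thick filament transcripts in each regenerating library than in any uninjured one. The summed FPKM of the 9 genes was 0.816, 0.874 and 0.835 of that of 18 thick filament genes in uninjured libraries, and 1.02, 1.39 and 0.988 of it in regenerating libraries. The log2 difference was 0.41 (exact permutation p = 0.1, adjusted p = 0.167). That separation depends on 1 thick filament gene, vmhcl. It measured 1548, 1288 and 1026 scaled FPKM in uninjured and 288, 196 and 300 in regenerating libraries. In the thick filament list 7 of 14 tested genes fell and none rose (limma), beside 3.93% and 7.49% of all tested genes. The median log2 change of the list was -1.07. In unscaled values 4 fell and 1 rose, the atrial gene myh6, beside 1.5% and 23.6% of all tested genes. The regulatory and essential myosin light chain genes myl7 (-0.83, SE 0.41, limma adjusted p = 0.227) and cmlc1 (-0.87, SE 0.40, limma adjusted p = 0.202) stood close to tnnt2a, while the ventricular heavy chain gene vmhcl fell by 2.30 on the log2 scale (SE 0.27, limma adjusted p = 0.00136).

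Transcript length moved with these changes. Apart from tnnc1b and the near-unread tpma, thin filament genes with lengths of 0.859 kb to 1.31 kb had log2 changes of -1.32 to -0.48, and tmod1 and lmod2b, at 2.25 kb and 2.33 kb, had the lowest values. Over 35 thin filament, thick filament and other cardiomyocyte genes with a mean normalised count of at least 10, the median log2 change was -0.48 for 7 genes under 1 kb, -0.79 for 6 genes of 1 to 1.5 kb, -1.27 for 11 genes of 1.5 to 3 kb and -1.76 for 11 genes of 3 kb and over. Spearman's rho of length and log2 change across these 35 genes was -0.48, and across all 11800 genes that passed the same filters it was -0.14. Both are descriptions across genes measured in the same 6 libraries. As tmod1 and lmod2b are close in length, their ratio sets genes of like length side by side. The part of length in the lower values of lmod2b and tmod1 per actin was not tested. This comparison was added after the values were seen.

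**Figure D5:**
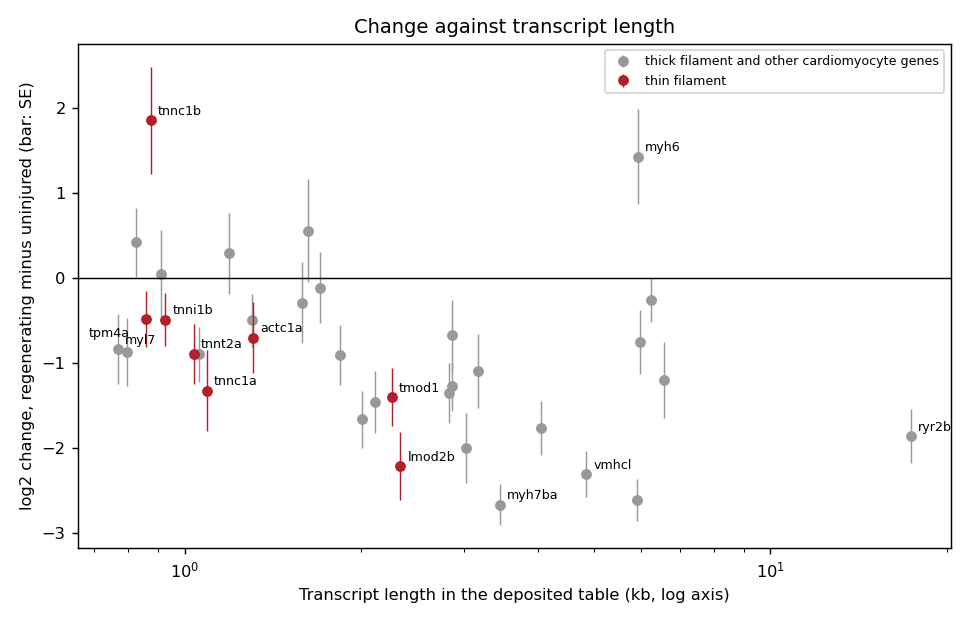
Log2 change (regenerating minus uninjured, bars are SE) against transcript length in kb (log axis) for 8 thin filament genes (red) and for thick filament and other cardiomyocyte genes (grey). Genes under 1 kb have a median of -0.48 and genes of 3 kb and over one of -1.76, with tmod1 and lmod2b at 2.25 kb and 2.33 kb.

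Other thin filament genes here are further troponins, tropomyosins and actins, and a list of filament ends, assembly and length that includes titin. Of 46 found, 32 were tested. At limma's unadjusted p below 0.05, 2 were higher, and no share of all genes was computed at that cut. At limma's adjusted p below 0.05, 8 fell and none rose. Among all tested genes 3.93% were called lower and 7.49% higher. Of the 8, 5 were of the list of filament ends, assembly and length (nrap, fhod3a, fhod3b, ttn.1 and ttn.2). The others were TPM1, tpm2 and acta2. The 32 tested genes had a median log2 change of -0.22. In unscaled values 3 fell and 6 rose, and their median was 0.29. Of all tested genes 1.5% were then called lower and 23.6% higher, and the median was 0.50. The authors' deposited table lists 10 of the other thin filament genes as lower and 1 as higher. Over the 21504 genes with a mean normalised count above 0, those shares were 4.62% and 4.84%. The lower calls numbered 4 without uninjured replicate 1, where 2 rose, 5 without uninjured replicate 3, and 3, 4 and 5 without regenerating replicates 1, 2 and 3. They numbered 4 without a filter on low values. Without regenerating replicate 3, 2.11% of all tested genes were called lower and 3.11% higher. That share was not computed for the other libraries left out or for the fit without a filter, so those counts have no share beside them. Among 18 other troponin genes, which include the fast and slow skeletal forms, 17 had a mean normalised count below 10, 6 passed the filter on FPKM and none was called. The troponin of these cells was thus read almost wholly from the 4 troponin genes described above.

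Other tropomyosins were not uniform. The gene TPM1 (ENSDARG00000087402), written in capitals in the deposited table, measured 92.8, 67.8 and 90.1 scaled FPKM in uninjured and 43.2, 51.2 and 41.6 in regenerating libraries. All regenerating values lay below all uninjured ones, and the log2 change was -0.86 (SE 0.23, adjusted p = 0.0422 in limma). It was -0.26 without scaling (limma adjusted p = 0.525), and the authors' deposited table gives -1.004 with an adjusted p of 0.00240. The gene tpm2 fell from 41.4 ± 18.4 to 16.0 ± 3.74 scaled FPKM (mean ± SD of 3 libraries), a log2 change of -1.25 with SE 0.33 (adjusted p = 0.0383 in limma). The calls of TPM1 and tpm2 were both lost without scaling, with mitochondrial genes removed from the total, without a filter on low values, with the replicate number as a block and when any library other than uninjured replicate 2 was left out, and that of TPM1 also without an intensity trend. The genes tpm3 and tpm4b are also expressed outside muscle. Their log2 changes were 0.47 (SE 0.21, limma adjusted p = 0.195) and 1.12 (SE 0.36, limma adjusted p = 0.0785), and both passed in unscaled values. All their regenerating values lay above all uninjured ones. In scaled FPKM tpm3 spanned 68.3 to 75.4 in uninjured and 89.9 to 106 in regenerating libraries, and tpm4b 15.9 to 36.9 and 41.5 to 84.8. Without uninjured replicate 1 tpm4b also passed. The paralogs tpm4a and tpm4b stood at a ratio of 77.1, 170 and 50.7 in uninjured and 24.3, 16.3 and 57.0 in regenerating libraries, with overlapping groups.

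Among other actins, the smooth muscle gene acta2 fell from 274 ± 32.6 to 105.9 ± 22.1 scaled FPKM (mean ± SD of 3 libraries), a log2 change of -1.38 with SE 0.24 (adjusted p = 0.00845 in limma). That call was lost without scaling and without regenerating replicate 1, and acta2 is itself 1 of the 4 smooth muscle markers counted above as lower, beside cnn1b, myh11a and rgs5a. The alpha-actin genes acta1a (-0.23, SE 0.55) and acta1b (-0.13, SE 0.41) and the cytoplasmic actin genes actb1 (0.27, SE 0.22) and actb2 (-0.22, SE 0.24) did not pass. Without scaling acta1a, acta1b and actb2 were above 0. All regenerating values of actb1 (568 to 632 scaled FPKM) lay above all uninjured ones (458 to 533). The ratio of acta1b to actc1a was 0.113, 0.0968 and 0.0882 in uninjured and 0.140, 0.176 and 0.126 in regenerating libraries, so that every regenerating value was the higher. This ratio was chosen after the values were seen.

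Among 17 tested genes of filament ends, assembly and length, 5 fell and none rose (limma), beside 3.93% and 7.49% of all tested genes. In unscaled values 4 were called higher, beside 23.6% of all tested genes. The nebulin-related anchoring gene nrap, which acts in myofibril assembly, fell from 15.1 ± 5.33 to 2.87 ± 0.821 scaled FPKM (mean ± SD of 3 libraries), a log2 change of -2.02 with SE 0.33 (adjusted p = 0.00615 in limma). The formin genes fhod3a (-1.38, SE 0.33) and fhod3b (-1.50, SE 0.36), which promote actin assembly in sarcomeres, and the titin genes ttn.1 (-2.06, SE 0.29) and ttn.2 (-2.34, SE 0.27) also fell. The calls of fhod3a and fhod3b were lost without scaling, that of fhod3a also without uninjured replicate 1 or 3 or regenerating replicate 1 or 2, and that of fhod3b without any library other than uninjured replicate 3. The calls of nrap, ttn.1 and ttn.2 held in each library left out. The barbed-end capping genes capza1a (0.72, SE 0.24), capza1b (0.47, SE 0.24) and capzb (0.62, SE 0.30) passed in unscaled values, and capzb also without uninjured replicate 1. In scaled values the regenerating libraries all lay above the uninjured ones for capza1a and capza1b, and the groups overlapped for capzb. The smooth muscle leiomodin gene lmod1b (-0.78, SE 0.27, limma adjusted p = 0.102) and the cofilin gene cfl2 (-0.42, SE 0.32) did not pass. The tropomodulin gene tmod2 measured 6.76, 8.72 and 2.85 scaled FPKM in uninjured and 9.45, 11.1 and 8.51 in regenerating libraries. Its log2 change was 0.68 (SE 0.35, limma adjusted p = 0.252) and passed in unscaled values (1.20, limma adjusted p = 0.0472). The leiomodin gene lmod2a went the other way (-1.40, SE 0.44, limma adjusted p = 0.0698) and passed without uninjured replicate 2.

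Most of the 9 genes followed each other across libraries. Pearson's r of scaled log2 values over the 6 libraries was 0.957 for tnnt2a and tpm4a, 0.959 for tnni1b and tpm4a, 0.946 for tnni1b and actc1a and 0.963 for tmod1 and lmod2b. It was -0.68 for tnnc1a and tnnc1b, the lowest of all 36 pairs. These values describe 6 libraries that share their group differences and their differences in summed cardiomyocyte transcripts. The 36 pairs, and the profile of the 9 used next, include tpma, whose values are no measure of expression. The 5 genes whose values were most like the mean standardised profile of the 9, among 2769 genes ranked, were atpif1b (r = 0.983), cox6a2 (0.976), MAF1 (0.975), ndrg4 (0.973) and actn2b (0.969), over 6 libraries. They encode an inhibitor of the mitochondrial ATP synthase, a muscle form of a cytochrome c oxidase subunit, a repressor of RNA polymerase III, a cytoplasmic protein needed for growth of the zebrafish heart and the Z-disc protein alpha-actinin.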

How the data were processed

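STAR 2.5.3a, RSEM 1.3.0, DESeq2, R 3.3.3 and build GRCz10 are named in the submitters' processing notes. The authors deposited log2 FPKM values per library, per the file headers. An offset of 0.1 was removed, because the values, once out of the log, step by 0.01 FPKM (100% of them to a tolerance of 0.001) and start at 0.1. The authors' deposited mean normalised count (a signal averaged over libraries), log2 fold change and adjusted p-value are quoted as theirs. No library counts are given, so depth is known only from those means.

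Libraries were scaled by median ratios over 8963 genes above 1 FPKM in all 6 libraries. Genes above 1 FPKM in at least 3 libraries were fitted as log2(scaled FPKM + 1) with limma 3.58.1 in R 4.3.3 (intensity trend, group only, two-sided, Benjamini-Hochberg, threshold 0.05), a script tested on simulated data. Fold changes are on that scale and understate the change of low genes. Ratios used FPKM with no pseudocount and exact permutation tests (scipy 1.17.1). Members and lists were chosen with earlier results of these data known. Symbols of 5 list genes absent from the table were matched by gene ID through a table of gene names (TPM1 for tpm1, PDGFRB for pdgfrb, krt18, vsg1 and 1 placeholder). By the naming rule, other thin filament genes are named when above 10 scaled FPKM in a group or called, and like-patterned genes by Pearson's r. The genes tmod2 and lmod2a are named beyond that rule. The 2 most abundant genes were cmlc1 and mb of the cardiomyocyte, acta2 and myl9a of the smooth muscle, acta1b and tnnt3b of the skeletal muscle, krt8 and anxa1a of the epicardial, col1a1a and postnb of the fibroblast, fli1a and cdh5 of the endothelial, cd74a and cd74b of the leukocyte, hbba1 and hbaa1 of the erythrocyte and fn1b and thbs1b of the thrombocyte list. No sequences or coordinates were used here.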

Additional observations from a re-analysis of the deposited data

How the results depend on the processing

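The count of 2 lower genes was 1 without library scaling and 0 without a filter on low values. In the latter fit limma's adjusted p of lmod2b was 0.0527. There 3 genes were lower and 1 higher at limma's unadjusted p below 0.05, a cut with no share of all genes computed. The count of lower genes ran from 1 to 2 when each library was left out, and the count of 0 higher genes ran from 0 to 1. Shares of all genes called were computed only with median-ratio scaling, without scaling and without regenerating replicate 3. The counts under the other settings here have no such share beside them. Without scaling the higher count was 1 (tnnc1b), and tnni1b (0.13), tpm4a (0.13) and tpma (0.012) were above 0. The cause of these changes was not tested. Upper-quartile and trimmed-mean scaling, removal of mitochondrial genes from the total, both other pseudocounts, the fit without trend and the filter on a mean normalised count of at least 10, added after seeing the data, kept lmod2b and tmod1 as the only calls. With each library left out, the log2 difference of actin per tropomyosin ran from -0.504 to 0.0301 and that of the tpm4a share from -0.000375 to 0.000642. The other 8 ratios kept their direction under every alternative run. Same-numbered libraries did not deviate together (r = -0.013, -0.0047 and -0.062 for replicates 1, 2 and 3) and share only a number. With the replicate number as a block the count of lower genes was 3, with tnnc1a at an adjusted p of 0.0219 in limma. No library correlated best with the one of its own number.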
